A study of Mus musculus with 28 samples.

Results

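The genes described here are 10 genes that astrocytes are known to induce after injury: Gfap, Vim, Serpina3n, Lcn2, Cp, Timp1, Cd44, Osmr, S1pr3 and Steap4. They were chosen by symbol, and all 10 were found among the 53801 genes of the deposited count table. The RNA came from 28 mice in 4 groups of 7, and each mouse gave a hemibrain that, per the labels, included the cerebellum and left out the olfactory bulb. All mice were labelled C57Bl/6J, were injected into the tail vein at 6 weeks and were 15 to 16 weeks old at collection.

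WT saline mice were wildtype and received isotonic saline, and WT AAV mice were wildtype and received the vector. DKO saline mice lacked Grn, the gene of the lysosomal protein progranulin, and Tmem106b, which encodes a lysosomal membrane protein, and received saline. DKO AAV mice had the same genotype and received the vector. The vector was AAV(L):bPGRN at 1.3e+13 vector genomes per kg, a liver-targeting virus. It makes human progranulin joined to the 8D3 antibody fragment, which recognises the transferrin receptor of the mouse. The labels name no promoter or cell type that restricts the deletions, and the tissue was whole, so the groups do not isolate astrocytes. WT groups held 4 males and 3 females, and DKO groups held 3 males and 4 females.

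Astrocytes respond to damage, to cytokines and to activated microglia by a shift called reactive astrogliosis. They build more intermediate filament from GFAP and vimentin, secrete protease inhibitors and acute-phase proteins, and put receptors for matrix and cytokines on their surface. The transcription factor STAT3, which acts downstream of gp130 receptors such as the one that contains OSMR, is a known activator of Gfap and of acute-phase genes. Several of the 10 genes are also made by other brain cells, such as Vim by endothelium and ependyma and Cd44 by microglia and leukocytes, so bulk RNA does not assign a change to astrocytes. In whole tissue, a change in the number of cells of a type and a change in RNA per cell cannot be told apart.

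The 300 bases around the RefSeq transcription start (250 before it and 50 from it on) are shown for the 4 genes that passed the test between saline-treated knockout and wildtype mice, so that the start regions of the called genes can be read side by side. RefSeq promoter sequences on GRCm38.p6 were matched for 10 of the 10 genes. Capitals mark matches to 3 motifs searched on both strands: the STAT motif TTCNNNGAA, the AP-1 motif TGANTCA and the TATA motif TATAAA.

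Gfap (chr11:102897151-102897450, minus strand): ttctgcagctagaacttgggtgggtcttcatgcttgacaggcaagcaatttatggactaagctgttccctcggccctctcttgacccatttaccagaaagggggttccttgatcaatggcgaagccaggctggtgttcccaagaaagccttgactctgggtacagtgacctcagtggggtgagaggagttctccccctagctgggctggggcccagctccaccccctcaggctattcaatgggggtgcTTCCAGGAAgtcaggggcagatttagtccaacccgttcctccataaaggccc

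Vim (chr2:13574061-13574360, plus strand): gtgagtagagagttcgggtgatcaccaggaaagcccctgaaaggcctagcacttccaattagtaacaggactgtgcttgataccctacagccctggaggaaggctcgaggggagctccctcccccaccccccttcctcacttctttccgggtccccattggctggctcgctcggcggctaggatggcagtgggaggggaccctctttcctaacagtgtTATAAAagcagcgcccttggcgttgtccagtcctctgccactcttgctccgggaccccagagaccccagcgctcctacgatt

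Serpina3n (chr12:104406458-104406757, plus strand): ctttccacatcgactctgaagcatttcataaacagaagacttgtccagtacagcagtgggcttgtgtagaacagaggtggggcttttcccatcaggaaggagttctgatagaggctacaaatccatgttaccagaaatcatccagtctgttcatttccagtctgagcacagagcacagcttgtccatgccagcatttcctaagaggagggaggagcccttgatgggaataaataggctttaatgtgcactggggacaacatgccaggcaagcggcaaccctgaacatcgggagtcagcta

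Cd44 (chr2:102901616-102901915, minus strand): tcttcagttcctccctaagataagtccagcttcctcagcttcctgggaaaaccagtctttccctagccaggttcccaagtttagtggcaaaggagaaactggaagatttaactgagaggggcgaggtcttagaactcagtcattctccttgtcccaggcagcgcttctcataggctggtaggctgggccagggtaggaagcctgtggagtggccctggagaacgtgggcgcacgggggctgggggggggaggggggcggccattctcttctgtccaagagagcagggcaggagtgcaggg

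Gfap held a STAT match, TTCCAGGAA, which lay across the annotated start, and Vim held a TATAAA match 32 to 27 bases before its start. These windows of Serpina3n and Cd44 held none of the 3 motifs. Among the 6 other genes, Steap4 held a STAT match, TTCCCGGAA, Osmr and Cp held an AP-1 match, and Cp and Steap4 held a TATA match. Of all 32851 mouse promoters of the same length, 8.3% held the STAT motif, 7.81% the AP-1 motif and 13.6% the TATA motif. A match describes these letters only, and no binding was measured.

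In the deposited annotation (GRCm38), each of the 10 genes was listed as protein coding. Gfap lay at chr11:102887336-102900912 on the minus strand, Vim at chr2:13573927-13582826 on the plus strand, Serpina3n at chr12:104406729-104414329 on the plus strand and Cd44 at chr2:102811141-102901665 on the minus strand. Cp lay at chr3:19957054-20009145, Timp1 at chrX:20870166-20874735, Osmr at chr15:6813577-6874969, Lcn2 at chr2:32384633-32388252, S1pr3 at chr13:51408639-51422797 and Steap4 at chr5:7960457-7982213.

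Total counts per library ran from 1164637 to 2389815. Levels are given as CPM, counts per 1e+06 of the TMM-adjusted library total, and each tag stands near the 3' end of a transcript, so CPM does not grow with transcript length. As a check of the labels, Tmem106b had median levels of 10.3 CPM in DKO saline and 9.66 CPM in DKO AAV mice against 114 and 116 CPM in the WT groups. Grn tags were not lower in DKO saline mice (median 199 CPM) than in WT saline mice (176 CPM), and since the extent of the Grn deletion is not given in the labels, its 3' tags do not check it. Mitochondrial genes took 12.6 to 19.0% of the counts in DKO saline and 18.9 to 21.1% in WT saline mice. DKO saline replicate 2, a male and the only mouse of its group in batch 2, stood apart: its striatal marker score, the mean log2 CPM of the list relative to WT saline, was -1.48, against -0.21 to 0.31 in the other 6 mice, and its neuronal score was -0.48. Its microglial score of 0.96 was the highest of the group, in which the other 6 mice had 0.46 to 0.68. The libraries of 2 more mice went against the stated tissue: cerebellar markers scored -2.69 for replicate 6 of WT saline and -1.88 for replicate 7 of WT AAV. There Cbln3, a gene of cerebellar granule cells, had 2.66 and 15.3 CPM against group medians of 193 and 210 CPM. Markers of the olfactory bulb, which was to be left out, had scores from -1.04 to 1.75 over the 28 mice. In all, 13 of the 28 libraries were atypical in regional content, by a striatal or cerebellar score below -1, a bulb score above 0.75 or over 500 reads of the pituitary genes Prl and Gh. Leaving these 13 out kept 4 WT saline, 2 WT AAV, 3 DKO saline and 6 DKO AAV mice. For some genes results are given with and without such libraries. In DKO saline against WT saline mice, the calls of Hspb1, Sox9, Mlc1 and Trac, described below, were also lost without the 13 libraries. So was that of Il11ra1 in DKO AAV against DKO saline mice. Counts over marker lists are given only with and without DKO saline replicate 2.

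**Figure D1:**
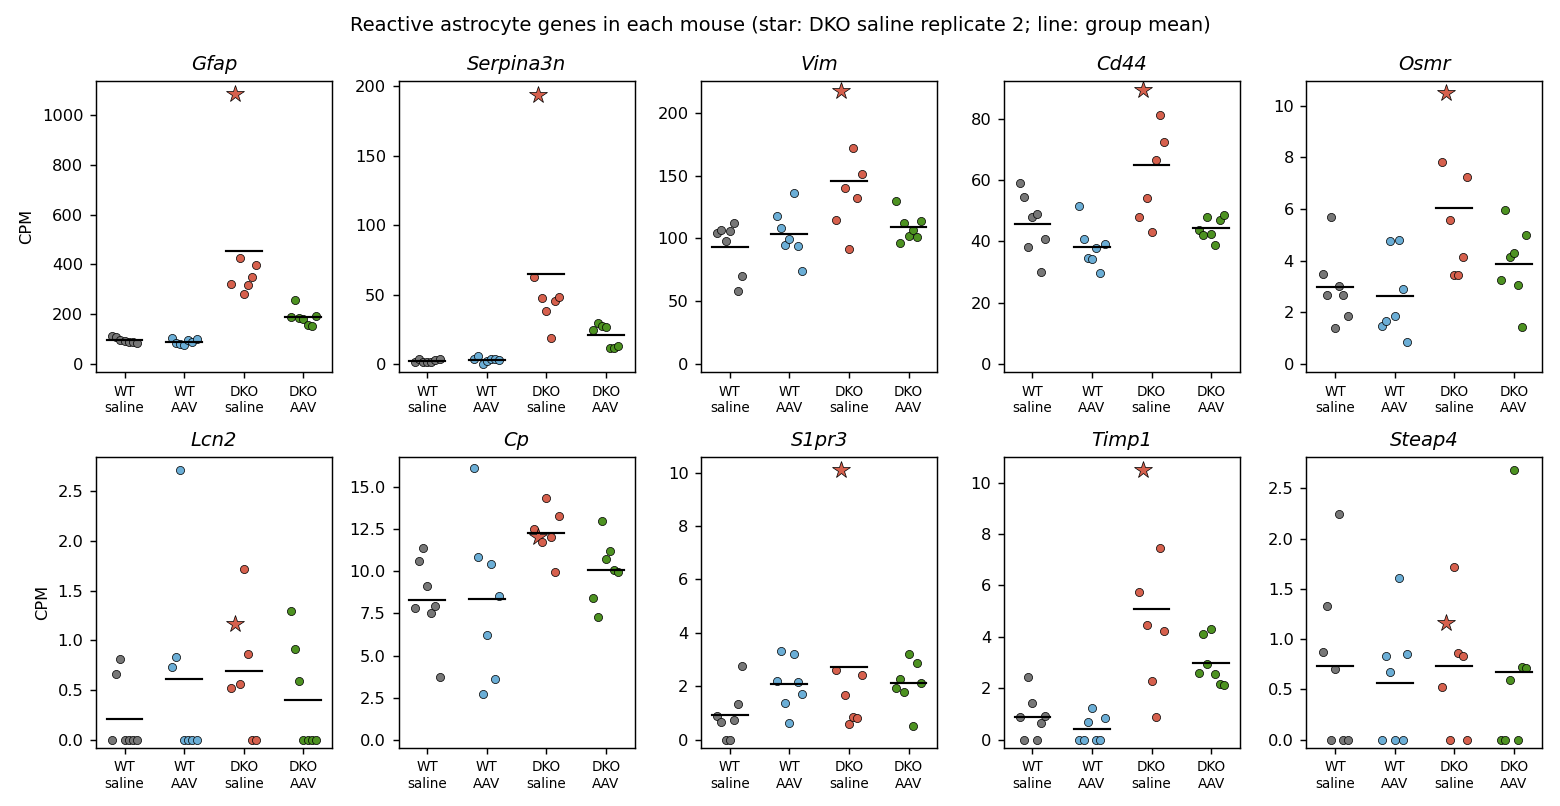
Level of each of the 10 genes (CPM, linear axis) in each of the 28 mice, with a line at the group mean of 7 mice and a star for DKO saline replicate 2. Gfap and Serpina3n are higher in all 7 DKO saline mice than in any WT saline mouse, and the starred mouse is the highest of its group for 7 of the 10 genes.

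The comparison of DKO saline with WT saline asks what loss of both genes did to the reactive astrocyte genes. Gfap, Serpina3n, Vim and Cd44 were higher in the knockout mice, by 4.89-fold, 33.5-fold, 1.67-fold and 1.45-fold. Timp1 and Osmr had higher counts too but were too low to enter the main test, and Lcn2 and Steap4 had almost no counts in any group. Of the 10 genes, 5 passed the filter on low counts (Gfap, Serpina3n, Vim, Cd44 and Cp), and 4 of these 5 had an adjusted p under 0.05, all higher. Serpina3n had at most 7 reads in any WT library and passed this filter only through the DKO groups. Its place among the 5 and its call as higher were therefore linked. Over all 11123 genes tested the share called was 6.87%, with 3.61% called higher and 3.25% lower.

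Gfap encodes the intermediate filament protein that defines the astrocyte cytoskeleton. Its level was 82.2, 91.5 and 113 CPM (lowest, median and highest) in WT saline mice. In DKO saline mice replicates 1 to 7 had 323, 1087, 425, 281, 319, 348 and 398 CPM. The groups did not overlap, and the lowest knockout mouse was above every wildtype mouse; 0.683% of all genes tested separated these groups in that direction and 0.225% in the other. The mean rose from 95.26 ± 11.02 CPM to 455 ± 283 CPM (SD, n = 7 each), a log2 change of 2.29 ± 0.18 (SE, adjusted p = 4.4e-11, edgeR quasi-likelihood test with Benjamini-Hochberg adjustment over all genes tested). Without DKO saline replicate 2 the log2 change was 1.90, with an adjusted p of 5.56e-15 in edgeR, and without the 13 atypical libraries it was 1.65 (adjusted p = 2.04e-09).

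Vim encodes vimentin, which polymerises with GFAP in reactive astrocytes and is also the filament of endothelial and ependymal cells. Its level was 57.8, 104 and 113 CPM in WT saline mice. DKO saline replicates 1 to 7 had 115, 217, 140, 91.9, 172, 132 and 151 CPM. In 6 of the 7 knockout mice Vim was above every wildtype saline mouse, and replicate 4 lay within the wildtype range. The log2 change was 0.74 ± 0.14 (edgeR adjusted p = 0.00108), and 0.59 without replicate 2 (adjusted p = 0.0123). Without the 3 libraries of low striatal or cerebellar score it was 0.45 (adjusted p = 0.0458), and without the 13 atypical libraries, in 3 knockout and 4 wildtype mice, it was 0.05 and the call was lost (adjusted p = 0.907). The summed level of 10 endothelial markers was 369 to 504 CPM in DKO saline and 339 to 516 CPM in WT saline mice. That of 6 ependymal markers was 37.1 to 65.4 CPM in DKO saline and 29.6 to 80.4 CPM in WT saline mice.

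Serpina3n encodes a secreted inhibitor of serine proteases and is among the most strongly induced genes of reactive astrocytes. It was nearly silent in wildtype brains, where WT saline replicates 1 to 7 gave 2, 5, 2, 2, 2, 4 and 4 reads, or 1.41 to 3.70 CPM. In DKO saline mice it reached 62.5, 194, 47.5, 37.9, 19.0, 45.5 and 48.3 CPM. Even the lowest knockout mouse, at 19.0 CPM, was above the highest wildtype saline mouse, at 3.70 CPM. The log2 change was 5.07 ± 0.34 (edgeR adjusted p = 8.26e-13), and 4.39 without replicate 2 (adjusted p = 1.77e-12). The size of this fold rests on a total of 21 reads in the 7 WT saline mice and 928 reads in the 7 DKO saline mice. The neighbouring genes of the Serpina3 cluster, near copies that could share reads, held few reads: in total per group Serpina3g had 3 to 5, Serpina3c, Serpina3i and Serpina3k 0 to 2, and the others 0.

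Cd44 encodes the surface receptor for hyaluronan. Its level was 29.9, 47.9 and 59.0 CPM in WT saline mice. DKO saline replicates 1 to 7 had 47.9, 89.3, 54.3, 43.1, 66.4, 81.2 and 72.4 CPM. The groups overlapped, with 4 knockout mice above every wildtype mouse. The log2 change was 0.53 ± 0.15 (edgeR adjusted p = 0.0263), and the call was lost without replicate 2 (0.39, adjusted p = 0.17), without WT saline replicate 3 (0.48, adjusted p = 0.0669) or 6 (0.44, adjusted p = 0.0737), without batch 2 (0.42, adjusted p = 0.238) and without batch 4 (0.38, adjusted p = 0.19). Without the 3 libraries of low striatal or cerebellar score it was 0.28 (adjusted p = 0.335), and without the 13 atypical libraries it turned to -0.07 (adjusted p = 0.888).

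Cp encodes ceruloplasmin, the copper-binding ferroxidase that astrocytes carry on their surface and secrete. It had 3.70, 7.97 and 11.4 CPM in WT saline mice and 9.94, 12.1 and 14.4 CPM in DKO saline mice. In 6 of 7 knockout mice it lay above every wildtype saline mouse, yet at 4 to 31 reads per library in these groups the log2 change of 0.60 ± 0.25 did not pass (edgeR adjusted p = 0.153). DKO saline replicate 2 was not high for Cp, at 12.04 CPM, the fifth of the 7 mice.

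The 5 remaining genes were below the filter, so their reads are given as counted. Timp1, a secreted inhibitor of matrix metalloproteinases, had 1, 0, 3, 2, 0, 1 and 1 reads in WT saline replicates 1 to 7. In DKO saline replicates 1 to 7 it had 11, 27, 8, 4, 1, 9 and 7 reads. In 5 of the 7 knockout mice Timp1 was above every wildtype saline mouse in CPM. When all genes were fitted without the filter, its log2 change was 2.71 ± 0.47 (edgeR adjusted p = 1.49e-06), and 2.25 without replicate 2 (adjusted p = 0.00482).

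Osmr, the oncostatin M receptor subunit, had 2 to 7 reads in WT saline mice and 15, 27, 10, 6, 4, 5 and 12 reads in DKO saline replicates 1 to 7. Only 3 knockout mice were above every wildtype saline mouse. Its unfiltered log2 change was 1.22 ± 0.34 (edgeR adjusted p = 0.0127), and without replicate 2 it was 1.02 (adjusted p = 0.198). S1pr3, a receptor for sphingosine 1-phosphate, had 0 to 3 reads in WT saline mice and 5, 26, 3, 1, 1, 1 and 4 reads in DKO saline replicates 1 to 7. Its unfiltered call (1.85, edgeR adjusted p = 0.0171) rested on replicate 2, without which the log2 change was 0.58 (adjusted p = 0.923).

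Lcn2, a siderophore-binding secreted protein known from lipopolysaccharide responses, had at most 4 reads in any of the 28 libraries. Steap4, a metalloreductase, had at most 5. For both genes no difference was detectable at this depth (unfiltered edgeR adjusted p = 0.521 for Lcn2 and 0.965 for Steap4 in DKO saline against WT saline). Without the filter edgeR also gave smaller p-values for abundant genes, so these unfiltered values are a less strict test than the main one.

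**Figure D2:**
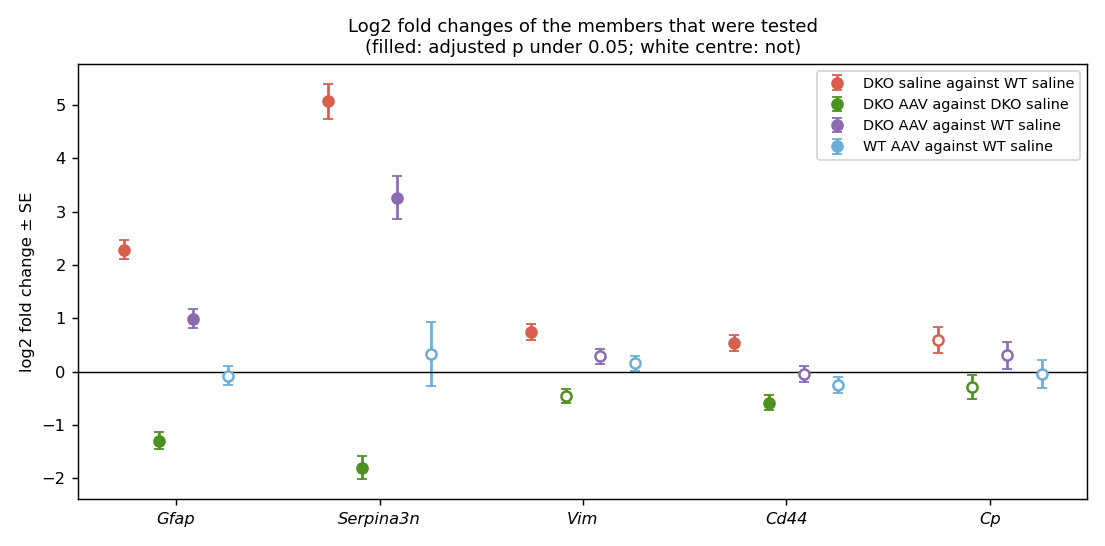
Log2 fold change with its SE for the 5 genes that were tested, in 4 comparisons of 7 mice against 7. The rise in DKO saline mice and the fall with the vector are largest for Serpina3n (5.07 and -1.80) and Gfap (2.29 and -1.30), and all WT AAV values have white centres.

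The comparison of DKO AAV with DKO saline asks what the vector did in knockout mice. Gfap, Serpina3n and Cd44 were lower with the vector, and Vim and Cp had negative values that did not pass. Of the 5 genes tested, 3 were called lower and 0 higher, where 3.00% of all genes tested were called, 2.18% lower and 0.818% higher. DKO saline mice are the reference here and are also the higher group of the preceding comparison, so the directions of both are linked through the same 7 mice.

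Gfap in DKO AAV replicates 1 to 7 was 188, 256, 184, 182, 158, 151 and 193 CPM. All 7 mice were below the lowest DKO saline mouse (281 CPM), a separation that 0.396% of all genes tested showed in this direction and 0.252% in the other. The log2 change was -1.30 ± 0.16 (edgeR adjusted p = 1.43e-05), and -0.94 without DKO saline replicate 2 (adjusted p = 4.86e-07).

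Serpina3n in DKO AAV replicates 1 to 7 was 24.7, 29.7, 27.2, 26.3, 11.2, 11.5 and 12.8 CPM. The groups overlapped through DKO saline replicate 5 (19.0 CPM), and 3 treated mice were below every untreated knockout mouse. The log2 change was -1.80 ± 0.22 (edgeR adjusted p = 8.42e-06), and -1.26 without DKO saline replicate 2 (adjusted p = 0.0012).

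Cd44 had 38.7, 43.5 and 48.5 CPM in DKO AAV mice, a log2 change of -0.58 ± 0.14 (edgeR adjusted p = 0.0218). Its call was lost without DKO saline replicate 2 (-0.45, adjusted p = 0.16), DKO AAV replicate 2 (-0.54, adjusted p = 0.0543) or DKO AAV replicate 5 (-0.57, adjusted p = 0.0564). The call was also lost without batch 2 (-0.415, adjusted p = 0.311), batch 3 or batch 4 (-0.562, adjusted p = 0.137). Without the 3 libraries of low striatal or cerebellar score the log2 change was -0.429 (adjusted p = 0.151). Without the 13 atypical libraries it was -0.255 (adjusted p = 0.649). Vim had 96.1, 107 and 130 CPM in DKO AAV mice, and its log2 change of -0.46 ± 0.14 had an edgeR adjusted p of 0.0598, which passed without DKO saline replicate 1 (-0.56, adjusted p = 0.0112) or 4 (-0.53, adjusted p = 0.0191). Cp had 7.32, 10.1 and 13.0 CPM and a log2 change of -0.29 ± 0.22 (edgeR adjusted p = 0.501).

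Of the genes below the filter, Timp1 had 4, 9, 5, 8, 5, 3 and 3 reads in DKO AAV replicates 1 to 7, all within the range of DKO saline mice (unfiltered log2 change -0.91 ± 0.34, edgeR adjusted p = 0.149). Osmr had 2 to 13 reads (-0.81 ± 0.30, adjusted p = 0.133) and S1pr3 1 to 6 reads (-0.67 ± 0.41, adjusted p = 0.608, with 0.56 and adjusted p = 0.965 without DKO saline replicate 2). None of the 5 low genes was called in this comparison without the filter, where 710 of all genes were.

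Treated knockout mice were also set against WT saline mice. Gfap and Serpina3n remained higher, and the other 3 tested genes did not pass. Serpina3n had passed the filter only through the DKO groups, so its call as higher was linked to the filter here too. The share of all genes tested that was called was 5.24%, with 1.45% called higher and 3.79% lower. Gfap was 1.99-fold higher (log2 change 0.99 ± 0.18, edgeR adjusted p = 0.00075), and all 7 treated mice, at 151 CPM or more, were above every WT saline mouse. Serpina3n was 9.61-fold higher (3.26 ± 0.40, edgeR adjusted p = 3.36e-06), and its 7 treated mice were again above every WT saline mouse; 0.351% of all genes tested separated these groups in that direction and 0.818% in the other. Cd44 differed by -0.05 ± 0.15 and Vim by 0.28 ± 0.14 (edgeR adjusted p = 0.903 and 0.278). Timp1, fitted without the filter, was higher by 1.80 ± 0.52 (edgeR adjusted p = 0.0233).

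In wildtype mice the vector left no called difference in the 5 tested genes, where 0.00% of all genes tested were called. The edgeR test called 0 genes in all (253 had an unadjusted p under 0.05), and DESeq2 and limma called 0. Of the 5 genes, 0 had an unadjusted p under 0.05. Gfap ran from 74.6 to 103 CPM with the vector (log2 change -0.07 ± 0.18) and Serpina3n from 0 to 7 reads (0.33 ± 0.60). The WT groups overlapped for all 5 genes, and over all genes tested they separated for 0.0180% upwards and 0.00899% downwards.

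Whether the vector's effect differed between genotypes was tested as an interaction. The log2 difference of effects (DKO minus WT) was -1.23 ± 0.25 for Gfap (edgeR adjusted p = 0.0722), -2.13 ± 0.66 for Serpina3n (0.256) and -0.61 ± 0.20 for Vim (0.266). None of the 5 genes passed in edgeR, 3 of 5 had an unadjusted p under 0.05, DESeq2 called 1 (Gfap) and limma called 0. Across all genes tested 0.0180% passed in edgeR, which were 2 genes, while DESeq2 called 13 and limma 2. The Gfap interaction did pass without DKO saline replicate 2 (-0.85, edgeR adjusted p = 0.00734), and also without DKO saline replicate 1 (-1.33, 0.0334) or 4 (-1.29, 0.0278) or WT AAV replicate 2 (-1.31, 0.0319) or 3 (-1.31, 0.0388).

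The order of the Gfap levels was therefore WT AAV (mean 89.6 CPM), WT saline (95.3 CPM), DKO AAV (187 CPM) and DKO saline (455 CPM). The 2 wildtype groups, neighbours in that order, did not differ beyond their spread, and each later step did. For Serpina3n the order was WT saline (2.28 CPM), WT AAV (2.96 CPM), DKO AAV (20.5 CPM) and DKO saline (65.0 CPM), with the WT groups again unresolved. DKO AAV was tested against WT saline and not against WT AAV, its neighbour in this order.

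The spread between DKO saline mice was uneven over the genes. The SD of log2 CPM was 0.98 for Serpina3n and 0.66 for Gfap, against a median of 0.28 over all genes tested. Only 0.467% of the genes had a larger SD than Serpina3n in these mice and 3.45% a larger one than Gfap. Vim (0.40), Cd44 (0.39) and Cp (0.15) were nearer to the median, and 91.5% of genes had a larger SD than Cp.

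Replicate 2 carried most of this for Gfap. Its Gfap level was 3.24 times the median of the other 6 mice, its Serpina3n level 4.17 times, its S1pr3 level 7.95 times, and its Vim level 1.60 times. Without it the SD of log2 CPM for Gfap fell from 0.66 to 0.22, and 63.1% of genes had a larger SD. For Serpina3n the SD without it was 0.57, which 4.65% of genes exceeded, and the other 6 mice still ranged from 19.0 to 62.5 CPM. Replicate 2 was the highest mouse of its group for 7 of the 10 genes, but not for Cp, Lcn2 or Steap4. It was also the mouse with the lowest striatal and neuronal scores and the highest microglial score, whose part in its levels was not tested.

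**Figure D3:**
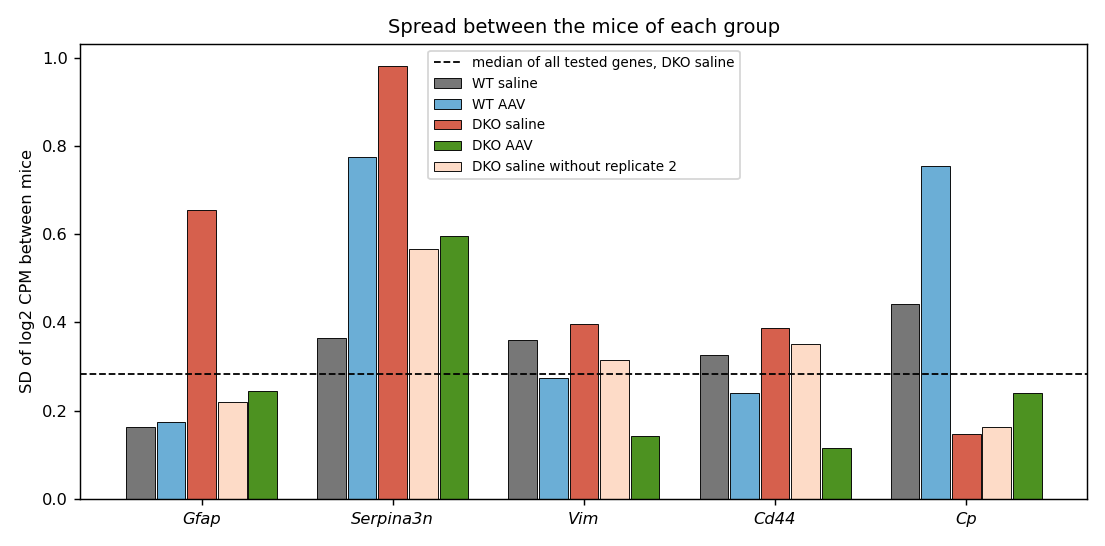
SD of log2 CPM between the 7 mice of each group for the 5 tested genes, with DKO saline also shown without replicate 2 (pale bars), and a dashed line at the median of all genes tested in DKO saline (0.28). Gfap drops from 0.66 to 0.22 without that mouse, while Serpina3n stays above the line at 0.57.

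The other 6 DKO saline mice did not rank alike for all genes. Replicate 5, a male of batch 4, had the lowest Serpina3n (19.0 CPM) but the second highest Vim (172 CPM). Replicate 4, a male of the same batch, had the lowest Gfap, Vim and Cd44 of the group but the highest Cp (14.4 CPM). Replicates 6 and 7, females of batch 4, had Cd44 at 81.2 and 72.4 CPM, above 4 of the other 5 mice.

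DKO AAV mice were closer together than all DKO saline mice for Gfap, Serpina3n, Vim and Cd44, but not for Cp (0.24 against 0.15). Their SD of log2 CPM was 0.24 for Gfap, 0.14 for Vim and 0.12 for Cd44, the last smaller than in 92.8% of genes. The median over all genes tested was 0.24 in DKO AAV and 0.28 in DKO saline mice. Without replicate 2 the DKO saline SD was 0.22 for Gfap and 0.57 for Serpina3n, no wider than with the vector. For Vim (0.32) and Cd44 (0.35) it stayed wider. Serpina3n kept a spread of 0.60, exceeded by 2.0% of genes. It fell into 24.7 to 29.7 CPM in the 4 mice of batches 1 to 3 and 11.2 to 12.8 CPM in the 3 mice of batch 4. DKO saline mice had 19.0 to 48.3 CPM of Serpina3n in batch 4 and 47.5 to 194 CPM in batches 1 to 3, ranges that overlap.

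**Figure D4:**
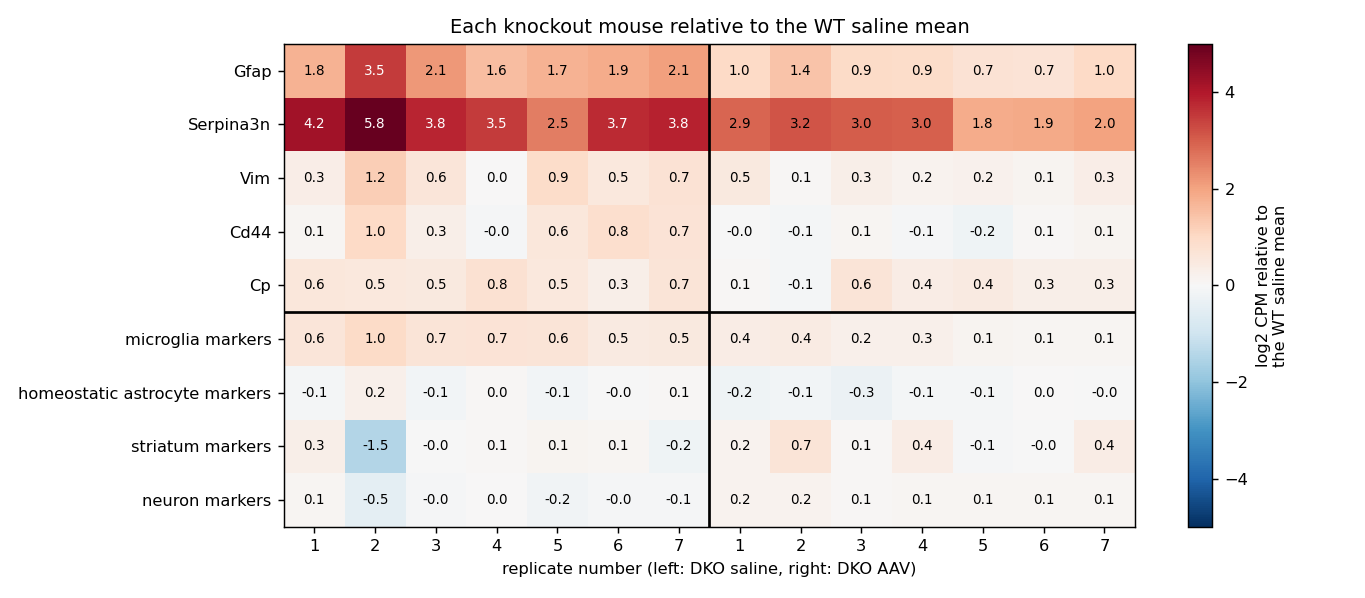
Each DKO mouse relative to the WT saline mean (log2 CPM with a prior count of 2, which shrinks low genes) for the 5 tested genes, above the mean of 4 marker lists on the same scale. Replicate 2 of DKO saline has the darkest Gfap and Serpina3n cells and the lowest striatal value, and the microglial row is higher in DKO saline than in DKO AAV mice.

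Within the 4 batches of the labels, each with 1 to 4 mice per group, Gfap and Serpina3n kept their directions. The log2 ratio of group means (with 0.5 CPM added) of DKO saline to WT saline was 1.51, 3.41, 2.22 and 1.99 for Gfap in batches 1 to 4, and 4.82, 6.03, 4.62 and 3.38 for Serpina3n. That of DKO AAV to DKO saline was -0.78, -2.30, -1.22 and -1.01 for Gfap, and -1.32, -2.75, -0.84 and -1.63 for Serpina3n. Vim was higher in DKO saline in all 4 batches (0.14 to 1.09) and lower with the vector in 3, with 0.18 in batch 1. Cd44 was higher in DKO saline in 3 batches, with -0.30 in batch 1. In batch 4 the labels gave an age of 16 weeks for the 4 DKO saline mice and 15.5 weeks for the other groups. Age was not a term of the fit, and within batch 4 it cannot be told apart from the DKO saline group.

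The knockout effect under saline was also compared between sexes. Gfap ran from 323 to 425 CPM in the 4 females of DKO saline (median 373 CPM) and was 281, 319 and 1087 CPM in the 3 males, the last being replicate 2. The log2 difference of effects (female minus male) was -0.53 ± 0.33 (edgeR adjusted p = 0.689), and without replicate 2 it was 0.21. None of the 5 genes passed in edgeR, where 0.00% of all genes tested did; 0 of the 5 had an unadjusted p under 0.05, and DESeq2 and limma called none.

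**Figure D5:**
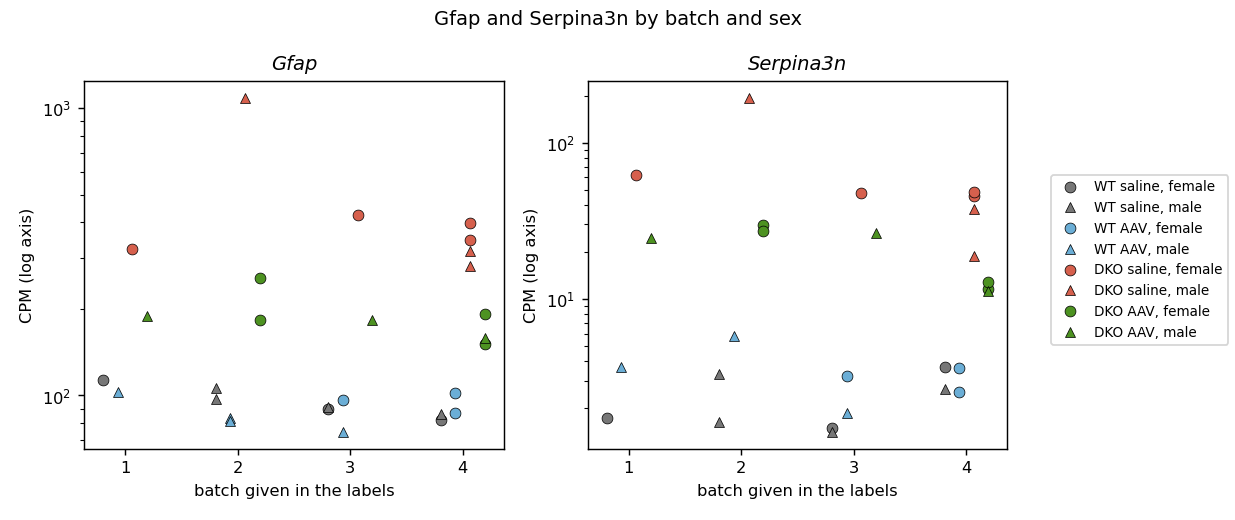
Gfap and Serpina3n in each mouse (CPM, log axis) by the batch of the labels, with circles for females and triangles for males; a WT AAV mouse with 0 Serpina3n reads is not drawn. DKO saline lies above WT saline in every batch for both genes, and the 1087 CPM of Gfap belongs to the only DKO saline mouse of batch 2, a male.

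Other genes of the reactive astrocyte response followed less uniformly. In DKO saline against WT saline mice, 3.61% of all genes tested were called higher and 3.25% lower. Of 3 further pan-reactive genes, Hspb1, a small heat shock protein, was the only one tested, and it was higher in DKO saline mice (12.7 against 6.92 CPM, log2 change 1.09 ± 0.27, edgeR adjusted p = 0.0113), a call lost without replicate 2 (0.69, adjusted p = 0.19). The other 2 were below the filter, with means of 7.51 against 1.97 CPM for Aspg and 2.33 against 1.02 CPM for Cxcl10. Of 8 tested genes known from the lipopolysaccharide response of astrocytes, 1 was called higher and 0 lower: Serping1, the C1 inhibitor (15.8 against 7.79 CPM, 1.12 ± 0.22, edgeR adjusted p = 0.00131), a call lost without batch 2 (0.84, adjusted p = 0.0697) and without the 13 atypical libraries (0.82, adjusted p = 0.117). The median log2 change of these 8 was 0.50, against 0.003 over all genes tested. Of 4 tested genes known from ischaemia, 0 were called in edgeR, with a median of 0.17 (S100a10 at 77.9 against 71.4 CPM, Emp1 at 26.1 against 25.3 CPM, Tm4sf1 at 20.7 against 18.3 CPM).

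Of 10 tested genes of the IL-6 family and STAT3 pathway, 1 was called in DKO saline against WT saline mice, Stat3 itself. Of all genes tested, 6.87% were called there and 3.61% were called higher. The level of Stat3 was 59.7 ± 4.2 CPM in WT saline and 95.2 ± 13.5 CPM in DKO saline mice (SD, n = 7 each), a log2 change of 0.68 ± 0.09 (edgeR adjusted p = 1.33e-05), and 0.62 without replicate 2. With the vector it was 80.6 CPM, still above WT saline (0.42 ± 0.09, edgeR adjusted p = 0.00531), and its log2 change from DKO saline of -0.25 did not pass (adjusted p = 0.1). The median of the 10 genes was 0.09. Il11ra1, the interleukin 11 receptor subunit, was lower in DKO AAV than in DKO saline mice (-0.45 ± 0.11, edgeR adjusted p = 0.0265). This call was lost in 11 of 48 alternatives. Among them were the fits without DKO saline replicate 2 (-0.37, adjusted p = 0.156), batch 2 (-0.314, adjusted p = 0.327) or batch 4 (-0.427, adjusted p = 0.224).

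Filament genes other than Gfap and Vim were not called: plectin (Plec), synemin (Synm) and nestin (Nes) had log2 changes of -0.22, -0.15 and -0.49 in DKO saline against WT saline (edgeR adjusted p = 0.441, 0.566 and 0.277). Of 12 tested partners of the surface and matrix genes, 1 was higher and 1 lower, where 3.61% of all genes tested were called higher and 3.25% lower. Mmp14, a membrane metalloproteinase, was higher (26.0 against 17.4 CPM, 0.61 ± 0.15, edgeR adjusted p = 0.0113), a call lost without batch 4 (0.62, adjusted p = 0.0685) and without the 13 atypical libraries (0.60, adjusted p = 0.177). Bcan, the hyaluronan-binding proteoglycan brevican, was lower (198 against 244 CPM, -0.31 ± 0.09, adjusted p = 0.0364). The call of Bcan was lost when any of 10 mice was left out singly, with an adjusted p of up to 0.115 (without WT saline replicate 7).

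Markers that define astrocytes irrespective of reactivity were present and abundant, with a summed level of 15360 to 19580 CPM in WT saline and 15740 to 19590 CPM in DKO saline mice. Of 18 tested, 3 were called higher and 0 lower, where 3.61% of all genes tested were called higher and 3.25% lower. The median log2 change of the 18 was -0.08. The 3 were Aqp4, the water channel of astrocyte endfeet (419 against 220 CPM, 0.96 ± 0.14, edgeR adjusted p = 2.34e-05), Sox9 (0.28 ± 0.08, adjusted p = 0.0297) and Mlc1 (0.30 ± 0.09, adjusted p = 0.0355). Without replicate 2 Aqp4 kept its call (0.69, adjusted p = 2.37e-05), and Sox9 (0.23, adjusted p = 0.118) and Mlc1 (0.17, adjusted p = 0.246) did not, nor did either without WT saline replicate 2, 4 or 5. Over the list, 1 was called higher and 2 lower without replicate 2, where 212 of all genes were called higher and 200 lower. In DKO AAV against DKO saline mice 2 of the 18 were lower and 0 higher, where 2.18% of all genes tested were called lower. One of these, Mlc1 (-0.31, edgeR adjusted p = 0.0494), lost its call in 33 of 48 alternatives. Without DKO saline replicate 2, 0 of the 18 were called, where 48 of all genes were called lower and 5 higher. In DKO AAV against WT saline mice 1 was higher and 5 were lower, where 1.45% of all genes tested were called higher and 3.79% lower. Without DKO saline replicate 2 the counts were 1 and 8, where 258 of all genes were called higher and 513 lower.

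Microglial markers moved with the reactive astrocyte genes. Of 15 tested, 11 rose in DKO saline against WT saline mice, with a median log2 change of 0.86, where 3.61% of all genes tested were called higher, and 10 were lower with the vector, where 2.18% of all were. Without DKO saline replicate 2 the counts were 10 higher (median 0.70) and, with the vector, 5 lower (median -0.45). Over all genes that fit called 212 higher and, with the vector, 48 lower, against 402 and 243 in the main fit. Their summed level was 1021 to 1711 CPM in WT saline, 1941 to 3278 CPM in DKO saline and 1457 to 1720 CPM in DKO AAV mice. C1qa, a complement subunit made by microglia, had a log2 change of 1.53 ± 0.18 (edgeR adjusted p = 4.56e-07) in DKO saline mice, and none of the 15 markers was without reads in any group. The part of microglia in the levels of Cd44 and of the other 9 genes was not tested.

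Among other cell types, 0 of 9 endothelial, 0 of 8 mural and fibroblast, 0 of 2 ependymal and 0 of 5 choroid plexus markers tested were called in DKO saline against WT saline by edgeR. Of all genes tested, 6.87% were called there, 3.61% higher and 3.25% lower. Of 4 leukocyte markers 1 was called (Trac, higher by 1.13, and 0.46 with adjusted p = 0.449 without DKO saline replicate 2), of 10 oligodendrocyte markers 1 (Mobp, lower, with 3 lower without that mouse) and of 10 neuronal markers 2 (Rbfox3 and Nefl, lower). Over all genes, 212 were called higher and 200 lower without that mouse. Of the regional markers, 0 of 9 striatal and 0 of 9 cerebellar ones were called, and 1 of 4 of the olfactory bulb (Th, higher by 1.70, and 1.04 with adjusted p = 0.27 without that mouse). Pituitary hormone genes (3 tested) were not called there. All 3 (Prl, Gh and Pomc) were called lower in DKO AAV than in DKO saline mice, where 2.18% of all genes tested were. This rested on DKO saline replicate 3, which held 3100 of the 3171 Prl reads of its group. Without it the log2 changes moved from -5.92 to -1.34 for Prl, from -5.64 to -0.46 for Gh and from -4.52 to -0.29 for Pomc, with adjusted p of 0.6, 0.924 and 0.938. Their part in the reactive astrocyte values was not tested.

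The genes whose profile over the 28 libraries was most like that of Gfap were found by the mean absolute difference of log2 CPM, each gene taken relative to its WT saline mean, among 11098 genes with a mean of at least 5 CPM. For Gfap they were Fcgr2b (0.297), Clec7a (0.401), Ctsh (0.407), Tent5c (0.433) and A2m (0.456). Fcgr2b, an Fc receptor, averaged 5.69 CPM in WT saline, 26.6 CPM in DKO saline and 10.9 CPM in DKO AAV mice. Clec7a, the receptor dectin-1, averaged 14.2, 70.2 and 31.9 CPM in the same groups.

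For Serpina3n the nearest were C4b (0.721), Clec7a (1.043), Gfap (1.09), Tent5c (1.213) and Fcgr2b (1.215), all at larger distances. C4b, complement component 4, averaged 8.19 CPM in WT saline, 68.7 CPM in DKO saline and 31.0 CPM in DKO AAV mice. Its log2 change in DKO saline was 3.17 ± 0.20 (edgeR adjusted p = 1.99e-13), and it was lower with the vector by -1.25 ± 0.15 (adjusted p = 8.42e-06). In likeness to Gfap, Vim ranked 176, Cp 617 and Serpina3n 10565, since the measure counts the size of a change and that of Serpina3n was larger.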

How the data were processed

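RNA of 28 hemibrains was counted with Lexogen's QuantSeq 3' kit with molecular identifiers, per the labels' protocols. Tags were processed with STAR and edgeR 3.40.2 on GRCm38.p6, per the submitters' processing notes (counting program, strand setting and annotation: not given in the sources used here). Counts as deposited by the authors are rounded to 2 significant digits, which leaves values below 100 exact and changes larger ones by up to 4.76%. The normalized CPM signal the authors deposited, scaled for library size per the file headers, served only in the limma alternatives. The RNA integrity score (RIN, 8.3 to 9.9) per the labels, and the deposited RNA concentration, were used as terms in alternatives; the deposited normalization factors, a ratio per library, were not used.

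The filterByExpr filter (minimum count 10 and total 15) kept 11123 genes. Their TMM-scaled counts were fitted by edgeR 4.0.16 (R 4.3.3) with the quasi-likelihood method and terms for group, sex and batch over all 28 libraries, adjusted by Benjamini-Hochberg over all genes tested at a threshold of 0.05. An SE is the log2 change divided by the square root of F. CPM and log2 CPM (prior count 2) came from the same counts. Alternatives were DESeq2 1.42.0, limma 3.58.1, other scalings, filters and terms, and left-out mice, batches and libraries; the unfiltered fit without a mouse and the list counts without libraries were added after the values had been seen. Replicates are separate mice, numbered in sample order.

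The 10 genes, the other gene lists and the tests were chosen with earlier results of these data known. Named genes are the 10, up to 3 genes per list (those called with the smallest p, or the most abundant), and the 5 nearest in profile to Gfap and to Serpina3n. Aspg, Cxcl10 and Il11ra1 fall outside that rule and were named after their values were seen.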

Additional observations from a re-analysis of the deposited data

Results flagged for a closer look

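In 40 groups of 7 mice (10 genes in 4 groups), 6 had a mouse whose distance from the nearest other mouse was more than 0.568 of the whole range of the group. Chance gives such a gap in about 1 of 20 groups if values are independent and normally distributed. CPM from few reads is not, and the 10 genes share the same mice, so the 6 gaps are a description only. DKO saline replicate 2 accounted for 3 of them: its Gfap level was 1087 CPM where the next mouse had 425 CPM, its Serpina3n level was 194 CPM where the next had 62.5 CPM, and its S1pr3 level was 10.1 CPM where the next had 2.61 CPM. DKO AAV replicate 2, a female of the same batch, had a Gfap level of 256 CPM where the next mouse had 193 CPM. The other 2 rested on few reads: Lcn2 at 2.71 CPM in WT AAV replicate 3, which is 4 reads, and Steap4 at 2.68 CPM in DKO AAV replicate 4, which is 5 reads.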

How the results depend on the processing

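Gfap and Serpina3n kept their direction and their call in all 48 alternatives in DKO saline against WT saline (log2 change 1.65 to 2.57 and 3.81 to 5.81), in DKO AAV against DKO saline (-1.57 to -0.83 and -2.02 to -1.25) and in DKO AAV against WT saline (0.83 to 1.13 and 2.34 to 3.90). Vim lost its call in DKO saline against WT saline only when the 13 libraries of atypical regional content (by striatal, cerebellar, olfactory bulb and pituitary markers) were left out (0.05, adjusted p = 0.907). Without these libraries 2 of the 10 genes were called there, where 901 of all genes were called. Cd44 was then -0.069, and Vim in DKO AAV against DKO saline was 0.014, its interaction 0.004, Pomc 0.42 and Cp in WT AAV against WT saline 0.27. The call of Cd44 was lost in 8 further alternatives in DKO saline against WT saline and in 9 in DKO AAV against DKO saline. With no filter on low counts 7 of the 10 genes were called in DKO saline against WT saline, where 869 of all genes were called. In that fit 3 had an interaction (Gfap, Serpina3n and Vim), where 156 of all genes did, against 2 in the main fit. For the interaction 1 gene, Gfap, was called by DESeq2, with RIN as a term, without batch 2, without the 3 libraries of low striatal or cerebellar score, and with no filter and DKO saline replicate 2 left out, and 0 to 1 with each replicate left out. Over all genes these fits called, in that order, 13, 6, 2, 5 and 53, and 0 to 16 with each replicate left out. The sex interaction of Gfap was -1.56 without batch 4, a fit in which DKO saline replicate 2 is the only male of its group. No call is read from that fit, since it rests on this mouse. With batch 4 kept and this mouse left out, the value was 0.21, with or without the filter. Other values near 0 changed sign. For the sex interaction these were Gfap at 0.21 without batch 2, 0.19 without low-score libraries and 0.17 without atypical libraries; Serpina3n at 0.26 without replicate 2 in either fit, 0.60 without batch 2 and 0.39 without atypical libraries; Cd44 at 0.027 without replicate 2 (0.033 with no filter), 0.29 without low-score and 0.50 without atypical libraries; Vim at 0.12 and 0.38 for the same 2 sets; and Cp at -0.11 without atypical libraries. With each replicate left out they ran from -0.517 to 0.027 for Cd44, -0.786 to 0.207 for Gfap and -1.166 to 0.262 for Serpina3n. Cd44 in DKO AAV against WT saline was 0.09 with library totals, 0.001 without batch 2, 0.051 with a term for RNA concentration, and -0.133 to 0.024 with each replicate left out. In WT AAV against WT saline Cp was 0.25 without batch 2 and -0.29 to 0.15 with each replicate left out, and Gfap was -0.151 to 0.011. The interaction of Cp was 0.04 without batch 1, and Gh in DKO AAV against DKO saline was 1.67 with RNA concentration as a term. The SD of log2 CPM in DKO saline with each replicate left out was 0.22 to 0.72 for Gfap and 0.57 to 1.07 for Serpina3n. Scaling by library totals alone moved the median of all genes by 0.12 in DKO saline against WT saline and gave 990 higher and 183 lower calls, against 402 and 362. All calls there were 412 without DKO saline replicate 2, 246 without batch 2 and 1175 without batch 4, and in DKO AAV against DKO saline 53, 21 and 94, against 334. The causes of these changes were not tested. No paired analysis was possible because each library came from a separate mouse with a single genotype and treatment. At 0 to 5 reads per library, differences in Lcn2 and Steap4 were beyond the depth.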
